A study of Mus musculus with 12 samples.

Results

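Eosinophils that had been exposed to IL-33 were compared after 24 h of culture with group 2 innate lymphoid cells (ILC2s) and after 24 h of culture alone. The comparison covers every gene that passed a filter on low counts in the 6 eosinophil libraries, 13109 of the 49315 genes counted. Both groups were C57BL/6 eosinophils from blood, taken as the fraction not held by magnetic beads against B220 and CD90, kept for 24 h with IL-33 and washed. One group of 3 libraries then stayed alone in medium without cytokines (eosinophils alone), and the other group of 3 was placed with ILC2s in the same medium (eosinophils with ILC2s). The ILC2s came from lung, had been expanded with IL-33 and IL-25 plus IL-7 and IL-2, were held for 48 h in IL-2 and IL-7, and were washed before the coculture. Afterwards the cells were separated by flow cytometry. The series holds 12 libraries, and the other 6 are ILC2s cultured with or without eosinophils, used below only where stated. The labels give no cell numbers or genotype, do not say whether eosinophils cultured alone also passed the sorter, and do not say whether replicates were separate mice or cultures. The p-values therefore speak of the variation among these particular libraries, part or all of which may be technical.

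Eosinophils are granulocytes of type 2 immunity. They live on IL-5, IL-3 and GM-CSF, which signal through the shared beta chain Csf2rb and the transcription factor STAT5, and they carry the IL-33 receptor. Cells sense oxygen through the EGLN prolyl hydroxylases, which mark the alpha subunits of hypoxia-inducible factor (HIF) for removal by the VHL complex. HIF that escapes removal pairs with ARNT, binds short DNA elements with the core ACGTG or GCGTG, and turns on glycolytic enzymes, glucose transporters, Vegfa, Bnip3 and, as a feedback, Egln3 and Egln1.

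All 6 libraries carried the genes that define eosinophils. Values are CPM, the counts of a gene relative to the size of its library, scaled by the trimmed mean of M-values (TMM), and fold changes are eosinophils with ILC2s against alone on the log2 scale, given ± SE. Siglecf, the eosinophil surface lectin, stood at 1172, 1168 and 1179 CPM alone and at 1143, 1159 and 1151 CPM with ILC2s. Ccr3, the eotaxin receptor, stood at 1312, 1383 and 1326 CPM alone and 1766, 1735 and 1787 CPM with ILC2s. The granule genes Prg2 and Epx and the IL-5 receptor gene Il5ra were present in each library as well. Markers of other cells were measured over whole lists, summed as CPM by library totals. The 21 ILC2 and lymphoid markers summed to 815 to 838 CPM alone and 814 to 846 CPM with ILC2s, with 11 of them, among them Rora, Icos and Lck, under 1 CPM in every library. Of its 10 tested members, 5 reached a mean of 8 CPM and hold most of the sum, so the sum says little of ILC2 RNA. Relative to cocultured ILC2s, the median level of 11 ILC2 markers was 0.156% ± 0.0581 (SD, n = 3) alone and 0.0908% ± 0.0265 with ILC2s, and these did not separate (exact permutation test, two-sided, p = 0.2, with 0.1 the lowest p that 3 against 3 can give). By library it was 0.222%, 0.129% and 0.116% alone and 0.121%, 0.0762% and 0.0747% with ILC2s, and the groups overlap. The 11 were the listed markers with at least 10 CPM in cocultured ILC2s and at most 1% of that in eosinophils alone. The choice thus capped the level alone, so the groups were not treated alike. Over 154 genes of at least 50 CPM in cocultured ILC2s, under the same cap, the groups did not overlap. They stood at 0.347%, 0.265% and 0.260% alone and 0.214%, 0.220% and 0.235% with ILC2s (exact permutation p = 0.1, the smallest possible).

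The 17 neutrophil markers summed to 1372 to 1518 CPM alone and 1724 to 1802 CPM with ILC2s. Retnlg alone went from 98.1 ± 13.7 to 631 ± 44.1 CPM, more than the whole sum rose, and the median log2 fold change of the 12 tested members was -0.42, with 3 higher and 4 lower. Camp was at 0 in all 6 libraries, and Mpo, Elane, Wfdc21 and Stfa2l1 were under 1 CPM. The 11 basophil and mast cell markers summed to 67.3 to 81.3 CPM alone and 31.4 to 32.4 CPM with ILC2s, with Tpsab1 and Mcpt4 at 0 and Mcpt8, Prss34, Tpsb2 and Cma1 under 1 CPM. The 18 monocyte, macrophage and dendritic markers summed to 437 to 479 CPM alone and 452 to 477 CPM with ILC2s, and 10 of them, including C1qa and Cx3cr1, were under 1 CPM. The 20 T, NK and B cell markers summed to 177 to 205 CPM alone and 223 to 251 CPM with ILC2s, and most of that was Ighm, at 179 ± 14.7 CPM alone and 203 ± 15.3 CPM with ILC2s. Of 5 tested members, 1 was called higher and 0 lower. The one called was the immunoglobulin gene Igkc, which rose by 2.67 on the log2 scale to 6.10 CPM with ILC2s. The plot of marker lists by library shows the basophil list as the one in which the groups lie farthest apart. In a bulk sample, fewer cells of a type and less RNA per cell cannot be told apart.

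**Figure D1:**
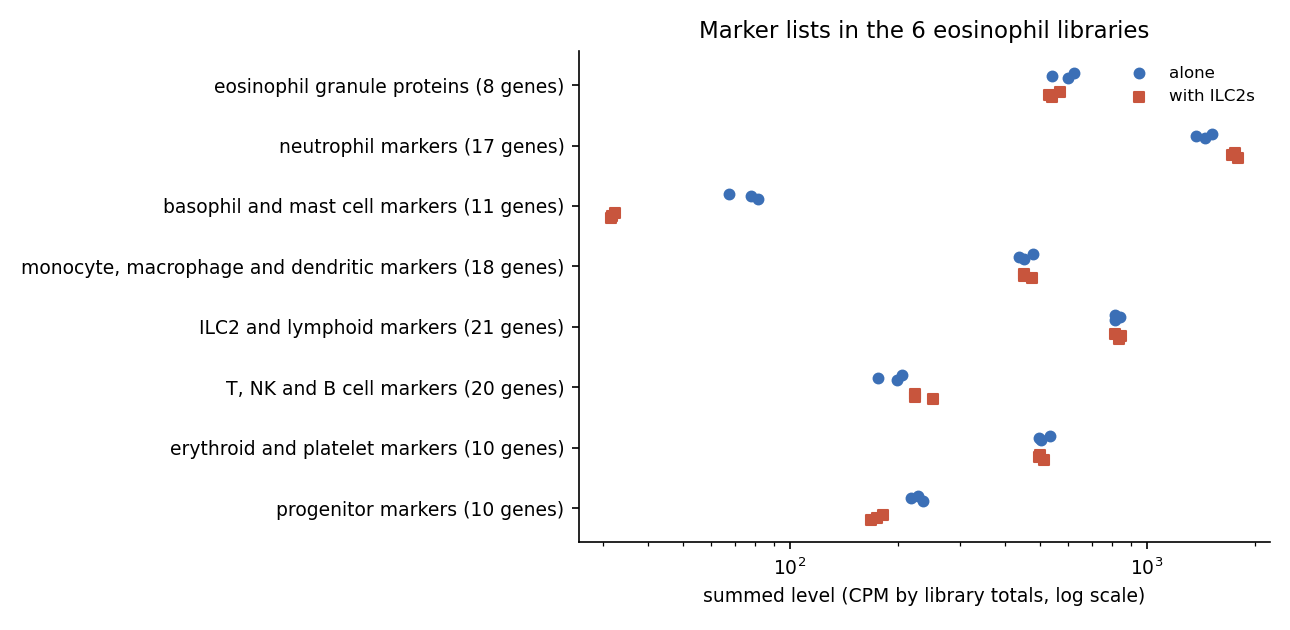
Summed level (CPM by library totals, log axis) of each marker list in the 3 libraries of eosinophils alone (circles) and the 3 with ILC2s (squares). The basophil and mast cell list lies at 67.3 to 81.3 CPM alone and 31.4 to 32.4 CPM with ILC2s, the ILC2 and lymphoid lists overlap, and the neutrophil list is higher with ILC2s, by less than its member Retnlg rose.

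Depth was similar across the eosinophil libraries, at 17739876 to 20815278 counts, so that 3 counts in a library equal 0.144 to 0.169 CPM. The first principal component held 59.3% of the variance, and the common biological coefficient of variation was 7.92%. Mitochondrially encoded genes took 1.64% ± 0.302 of counts alone and 1.45% ± 0.0248 with ILC2s (exact permutation p = 0.4). Ribosomal protein genes took 1.33% ± 0.119 alone and 1.61% ± 0.102 with ILC2s (exact permutation p = 0.1, the smallest possible). Replicate 2 of eosinophils alone stood apart by 5 features that carry ribosomal RNA-like reads (Gm42418, Gm23935, Gm26917, Mir6236 and Lars2), which took 0.671% of its counts against 0.127% and 0.197% in its partners and 0.0850% to 0.0888% with ILC2s. Leaving that library out is among the alternatives in the closing section.

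With ILC2s present, the eosinophils held less RNA of most genes on the lists of the hypoxia response, glycolysis and STAT5 targets, and more RNA of genes such as Cd34, Retnlg and Lyz2. In edgeR's quasi-likelihood test, 3264 genes (24.9%) passed a Benjamini-Hochberg adjusted p of 0.05. Of the genes tested, 1493 (11.4%) were higher and 1771 (13.5%) were lower with ILC2s. The falls were the larger: 604 genes (4.61%) fell by more than 2-fold against 151 (1.15%) that rose by more than 2-fold, and 164 against 38 passed 4-fold. The median log2 fold change was 0.39 among the higher genes, -0.68 among the lower genes and 0.00 over all genes tested. Scaling by library totals in place of TMM gave 2114 higher and 1532 lower, and leaving out replicate 3 of eosinophils with ILC2s gave 948 higher. Of the higher genes 835 (55.9%) stand at a higher level in ILC2s than in cocultured eosinophils, against 70.0% of all genes tested.

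**Figure D2:**
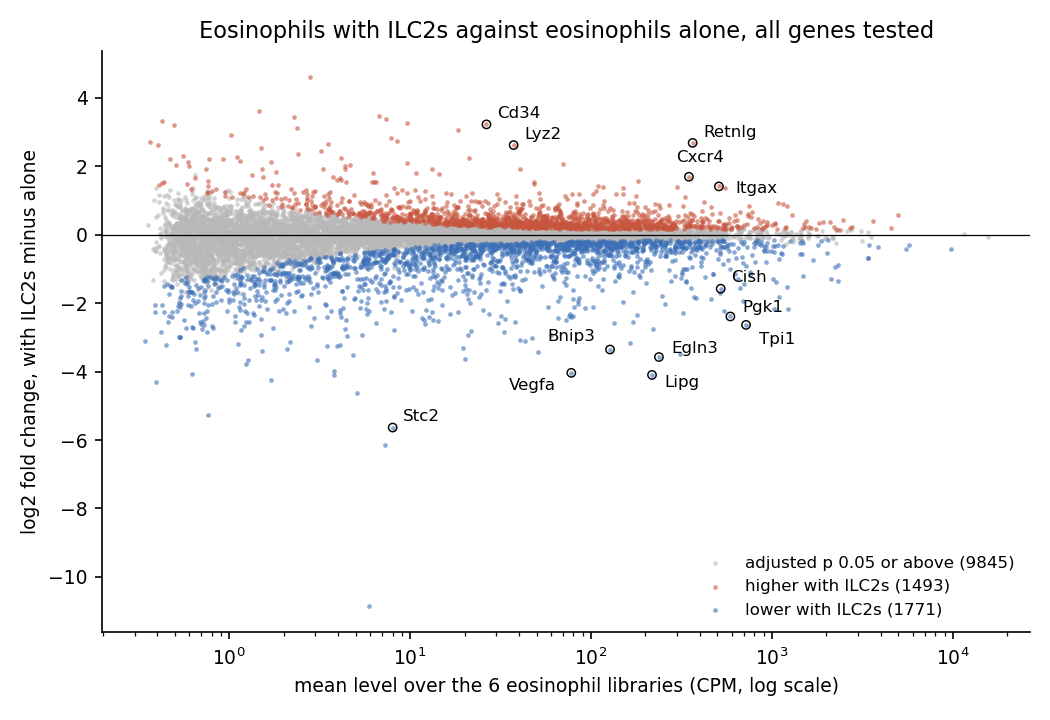
Log2 fold change (with ILC2s minus alone) of each of 13109 genes against its mean level over the 6 libraries (CPM, log axis), with 1493 genes higher in red, 1771 lower in blue and the rest in grey. Falls reach farther from 0 than rises, with Lipg, Vegfa and Egln3 below and Cd34, Lyz2 and Retnlg above; the lowest point is Mgarp, which had 0 counts with ILC2s.

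The DNA before the start sites of 6 genes that fell is shown because 5 of them are textbook targets of HIF and the other, Socs3, of STAT factors. They were picked for that role and not for the size of the fall. Each stretch is the 250 bases upstream of a RefSeq start (GRCm38.p6), written 5′ to 3′ on the strand of the gene, with capitals marking ACGTG or GCGTG on either strand (CACGT and CACGC are the same cores read from the other strand). Where CACGTG is in capitals, ACGTG and CACGT overlap. In Socs3, capitals mark TTCNNNGAA, the palindrome that STAT dimers bind. The windows are chr12:54203875-54204124 (Egln3, minus strand), chr8:124949255-124949504 (Egln1, minus), chr7:138909507-138909756 (Bnip3, minus), chrX:106186850-106187099 (Pgk1, plus), chr7:46845554-46845803 (Ldha, plus) and chr11:117969367-117969616 (Socs3, minus).
Egln3: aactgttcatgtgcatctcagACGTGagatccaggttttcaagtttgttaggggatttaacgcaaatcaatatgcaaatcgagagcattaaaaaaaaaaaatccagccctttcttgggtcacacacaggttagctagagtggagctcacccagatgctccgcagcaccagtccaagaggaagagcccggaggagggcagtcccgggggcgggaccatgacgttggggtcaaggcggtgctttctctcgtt
Egln1: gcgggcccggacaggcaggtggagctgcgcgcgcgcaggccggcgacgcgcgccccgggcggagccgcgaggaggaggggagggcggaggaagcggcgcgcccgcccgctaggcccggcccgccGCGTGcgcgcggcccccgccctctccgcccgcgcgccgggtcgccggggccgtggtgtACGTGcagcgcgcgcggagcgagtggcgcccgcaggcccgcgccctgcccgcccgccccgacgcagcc
Bnip3: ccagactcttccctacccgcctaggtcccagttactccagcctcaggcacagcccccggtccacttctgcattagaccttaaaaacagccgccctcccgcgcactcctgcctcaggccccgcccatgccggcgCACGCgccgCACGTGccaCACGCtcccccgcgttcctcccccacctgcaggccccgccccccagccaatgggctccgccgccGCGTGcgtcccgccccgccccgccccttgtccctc
Pgk1: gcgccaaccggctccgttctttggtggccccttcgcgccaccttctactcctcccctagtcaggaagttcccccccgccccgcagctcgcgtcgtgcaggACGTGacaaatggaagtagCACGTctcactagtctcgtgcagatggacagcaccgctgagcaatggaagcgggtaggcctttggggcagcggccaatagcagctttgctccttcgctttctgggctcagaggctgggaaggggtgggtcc
Ldha: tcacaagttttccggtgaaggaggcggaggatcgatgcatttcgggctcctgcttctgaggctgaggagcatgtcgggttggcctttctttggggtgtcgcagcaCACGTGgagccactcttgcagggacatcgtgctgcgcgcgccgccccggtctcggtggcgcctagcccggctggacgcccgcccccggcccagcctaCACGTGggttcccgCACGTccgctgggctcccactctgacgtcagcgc
Socs3: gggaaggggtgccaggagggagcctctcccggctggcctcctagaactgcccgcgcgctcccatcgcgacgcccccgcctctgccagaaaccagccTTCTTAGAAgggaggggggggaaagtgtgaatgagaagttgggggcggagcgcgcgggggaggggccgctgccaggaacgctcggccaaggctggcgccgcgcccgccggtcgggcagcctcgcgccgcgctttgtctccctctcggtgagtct

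The Egln3 window held 1 core, 229 bases before the start. Bnip3 held 5 matches within its window and Ldha 5, counting overlapping matches on both strands, while Egln1 and Pgk1 held 2 each. Over full RefSeq promoters of 300 bases (250 before the start and 50 after it), 16 of 22 promoters (72.7%) of the hypoxia genes that fell and 21 of 26 (80.8%) of the glycolysis genes that fell held ACGTG or GCGTG. The same letters stood in 61.4% of the 11866 promoters of tested genes and in 43.8% of all 32851 promoters. TTCNNNGAA stood in 2 of 17 promoters (11.8%) of the STAT5 target genes that fell, 6.93% of those of tested genes and 8.30% of all. A match is a description of the letters and not of binding. Promoters were matched by symbol for 15 of the 18 hypoxia genes, 17 of the 18 glycolysis genes and 12 of the 16 STAT5 targets.

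The hypoxia response fell. Of 23 tested members of a list of 26, 18 fell and 0 rose, with a median log2 fold change of -1.69, against 13.5% of all genes lower and a median of 0.00. Egln3 (chr12:54178981-54203860, mm10, minus strand), the oxygen-sensing hydroxylase that HIF itself induces, stood at 438, 441 and 435 CPM alone and 37.4, 35.8 and 37.1 CPM with ILC2s. The groups lie far apart and each is tight, so that the difference exceeds the spread many times over (log2 fold change -3.57 ± 0.059, edgeR adjusted p = 2.9e-13). Egln1, the main oxygen sensor in most cells, stood at 237, 225 and 229 CPM alone and 41.1, 34.6 and 40.3 CPM with ILC2s (-2.57 ± 0.073, edgeR adjusted p = 2.7e-11). Egln2, the family member that HIF does not induce, stood at 60.7, 65.3 and 70.9 CPM alone and 67.5, 64.8 and 68.8 CPM with ILC2s, and its groups overlapped (0.03 ± 0.071, edgeR adjusted p = 0.81). Per kilobase of exon, the levels alone ran Egln3 165, Egln1 64.1 and Egln2 23.5 CPM, and with ILC2s Egln2 23.9, Egln3 13.8 and Egln1 10.8 CPM, so that Egln2 went from the lowest level of the family to the highest.

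The transcription factor subunits themselves did not pass the test. Hif1a, the inducible alpha subunit, stood at 434, 496 and 436 CPM alone and 431, 471 and 449 CPM with ILC2s (-0.02 ± 0.064, edgeR adjusted p = 0.89). Its partner Arnt gave -0.02 ± 0.063, and Epas1, the other alpha subunit, was near the limit of detection with 29 counts alone and 34 with ILC2s. Vhl, which recognises the hydroxylated alpha subunit, fell from 40.5 ± 1.72 to 31.1 ± 1.00 CPM (-0.38 ± 0.073).

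Among the targets, Vegfa, the vascular growth factor, stood at 156, 151 and 133 CPM alone and 7.35, 10.9 and 8.51 CPM with ILC2s (-4.04 ± 0.12, edgeR adjusted p = 2.8e-11). Bnip3, a mitochondrial protein that recruits autophagosomes, stood at 247, 237 and 213 CPM alone and 20.5, 22.2 and 25.2 CPM with ILC2s (-3.35 ± 0.087). Its relative Bnip3l fell less, from 219 ± 5.67 to 112 ± 3.13 CPM (-0.97 ± 0.056). Both genes kept their groups apart, which the rule for naming the largest falls required of Bnip3. Pdk1, a kinase that inhibits pyruvate dehydrogenase, fell from 106 ± 10.2 to 13.8 ± 0.329 CPM (-2.93 ± 0.086). Ero1l, the endoplasmic reticulum oxidase, fell from 898 ± 108 to 192 ± 9.04 CPM (-2.22 ± 0.081). P4ha1, a collagen prolyl hydroxylase, fell by 2.13 on the log2 scale, Ndrg1 by 3.64, Fam162a by 3.07, Ankrd37 by 2.80 and Selenbp1 by 2.37. Smaller falls were seen for the histone demethylase Kdm3a (-0.63), the mTOR inhibitor Ddit4 (-0.65) and Mxi1 (-0.29). Car9, a carbonic anhydrase and common hypoxia marker in other tissues, was low, at 4.08 ± 0.364 CPM alone and 5.05 ± 1.23 CPM with ILC2s, and missed the threshold (edgeR adjusted p = 0.32). Ankrd37 and Fam162a overlap genes on the other strand (Ufsp2 and Wdr5b), and the strand setting of the counting is not given in the sources used here.

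The largest falls over all genes named by size included 3 outside the lists. Stc2, a secreted glycoprotein, went from 867 counts in the 3 libraries alone to 19 with ILC2s (17.1, 16.9 and 13.1 CPM against 0.621, 0 and 0.335 CPM, -5.63 ± 0.36). Neb, which encodes the muscle protein nebulin, stood at 534, 746 and 420.3 CPM alone and 48.8, 64.9 and 39.0 CPM with ILC2s (-3.48 ± 0.20). Gm16754, an uncharacterised gene that overlaps Keap1 on the other strand, stood at 38.5, 34.1 and 34.5 CPM alone and 4.45, 3.57 and 2.82 CPM with ILC2s. Each was lower in every cocultured library than in any library alone, which the rule for naming genes by size required.

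Glycolysis fell along its whole length. Of 20 tested members of a list of 21, 18 fell and 0 rose, with a median of -1.35. Glucose enters through Slc2a1 and Slc2a3. Slc2a1 fell from 536 ± 30.2 to 180.5 ± 5.98 CPM (-1.57 ± 0.060), and Slc2a3 from 1020.4 ± 63.8 to 379 ± 9.58 CPM (-1.43 ± 0.059). The hexokinases that trap it differed: Hk2 fell from 692 ± 14.9 to 385 ± 6.75 CPM and Hk1 from 264 ± 5.72 to 186 ± 4.36 CPM, whereas Hk3 stood at 47.1 ± 1.17 CPM alone and 46.0 ± 3.48 CPM with ILC2s and missed the threshold (edgeR adjusted p = 0.79). At the committed step, the phosphofructokinase gene Pfkl stood at 382, 374 and 388 CPM alone and 57.6, 55.0 and 56.0 CPM with ILC2s (-2.76 ± 0.057, edgeR adjusted p = 2.2e-12). Pfkp fell by 2.28 on the log2 scale, while Pfkm was scarcely expressed (1.34 ± 0.314 and 0.750 ± 0.0681 CPM).

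In the lower steps, Aldoc, an aldolase, stood at 95.1, 89.4 and 95.5 CPM alone and 9.32, 8.13 and 8.61 CPM with ILC2s (-3.43 ± 0.081, edgeR adjusted p = 5.6e-12). Tpi1, triosephosphate isomerase, stood at 1238, 1198 and 1279 CPM alone and 203, 188 and 207 CPM with ILC2s (-2.63 ± 0.059). Pgk1, which makes the first ATP of the pathway, stood at 996, 974 and 998 CPM alone and 189, 182 and 195 CPM with ILC2s (-2.39 ± 0.055). All 3 genes were lower in every cocultured library than in any library alone, which the rule for naming the largest falls required of Aldoc. The abundant enzymes Gapdh (-1.34), Eno1 (-1.28) and Pgam1 (-1.42) fell by similar factors, and Pkm (-0.88), Aldoa (-0.69) and Gpi1 (-0.52) by less. Ldha, which turns pyruvate into lactate, fell from 1514 ± 47.3 to 579 ± 24.6 CPM (-1.39 ± 0.054), and the lactate exporter Slc16a3 from 1051 ± 58.8 to 472 ± 28.8 CPM (-1.15 ± 0.062). Gapdh, Tpi1, Pgk1 and Ldha have many processed copies in the genome, and how the counting treated reads that fit several places is not given in the sources used here.

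Oxidative phosphorylation did not move with glycolysis. Of 25 tested subunits, 4 rose and 1 fell, with a median of 0.04. Sdha and Sdhb, subunits of succinate dehydrogenase, rose by 0.28 ± 0.054 and 0.29 ± 0.082, Ndufb5 by 0.27 ± 0.091 and Ndufv1 by 0.21, while Cox5a fell by 0.42 on the log2 scale. The calls of Sdhb, Ndufb5 and Ndufv1 were lost without either replicate 1 (adjusted p up to 0.097, 0.15 and 0.19 over all alternatives), and those of Ndufb5 and Ndufv1 also in DESeq2.

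**Figure D3:**
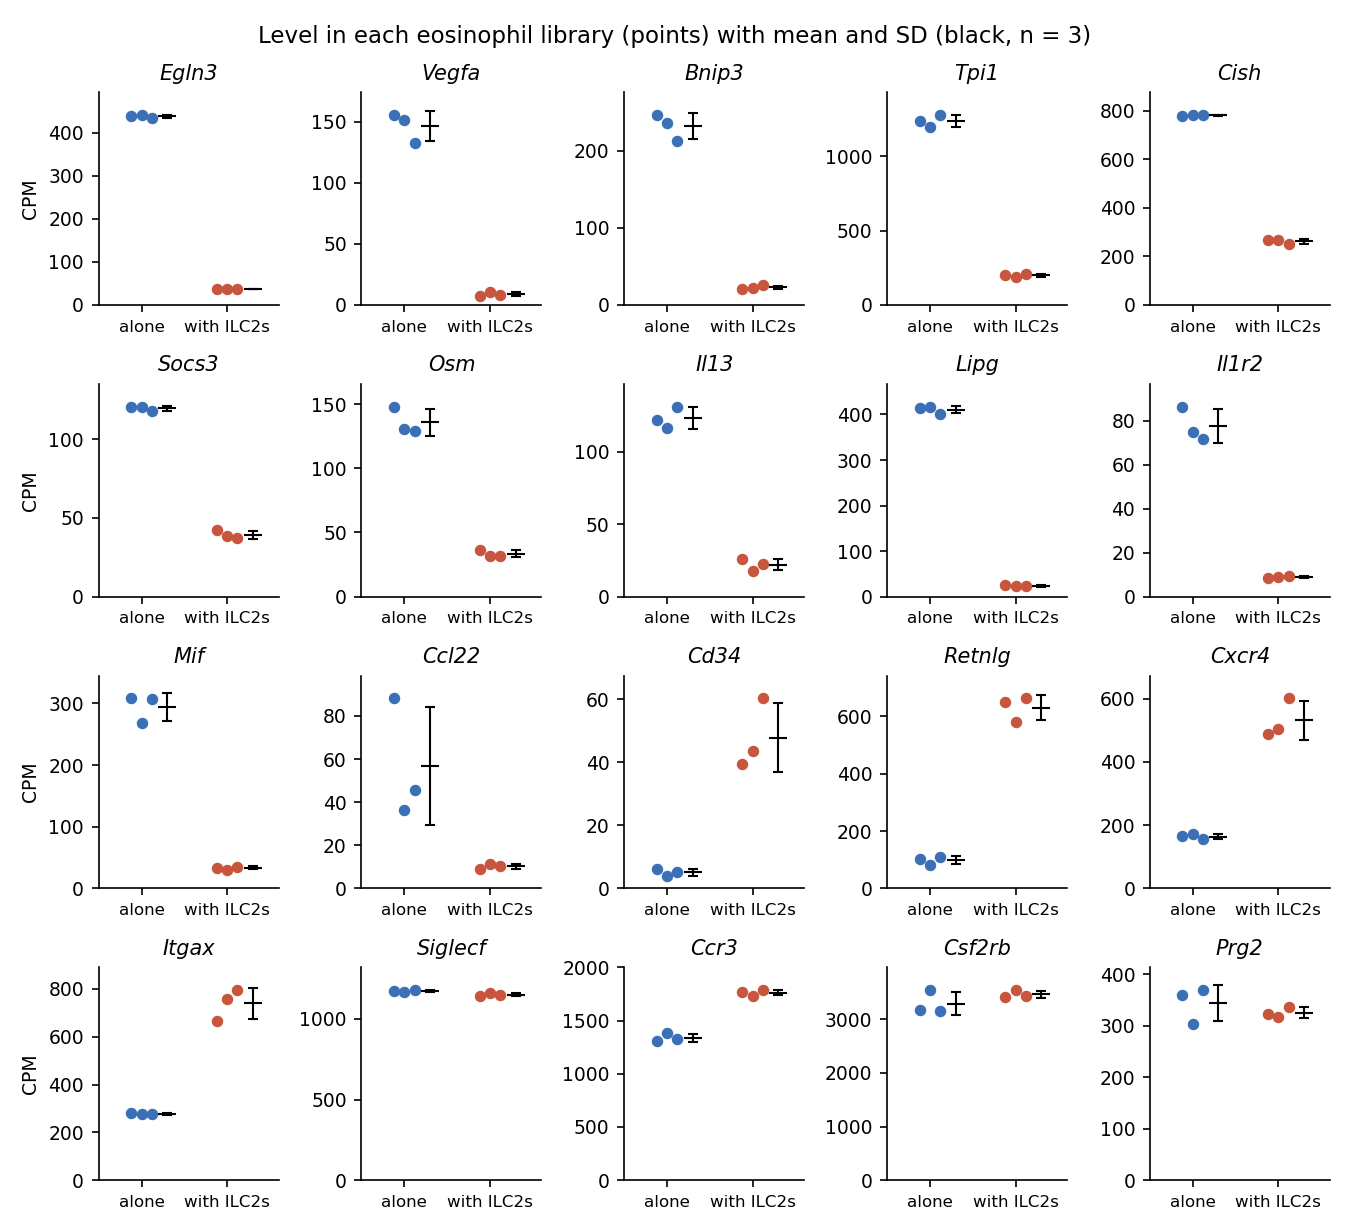
Level (CPM, linear axes from 0) of 20 genes in each of the 3 libraries alone (blue) and the 3 with ILC2s (red), with the mean and SD of each group in black. The groups do not overlap for the hypoxia, glycolysis and cytokine signalling genes or for Cd34, Retnlg, Cxcr4 and Itgax, while Csf2rb and Prg2 overlap and Siglecf stands at 1173 ± 5.75 and 1151 ± 7.86 CPM.

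Targets of STAT5, the factor downstream of the IL-5 receptor, fell as a group. Of 18 tested members, 16 fell, 1 rose and 1 did not pass the test, with a median of -1.55. Cish, an inhibitor induced by STAT5, stood at 776, 782 and 783 CPM alone and 268, 266 and 249.9 CPM with ILC2s (-1.58 ± 0.053, edgeR adjusted p = 1.3e-10). Socs1, another feedback inhibitor, fell from 384 ± 36.7 to 111 ± 11.7 CPM (-1.79 ± 0.085), and Socs3 from 119.5 ± 1.61 to 39.2 ± 2.5 CPM (-1.61 ± 0.066). Socs2 was the exception within the family, at 248 ± 1.46 CPM alone and 261 ± 7.97 CPM with ILC2s (0.07 ± 0.053, edgeR adjusted p = 0.39). The survival kinase gene Pim2 stood at 736, 691 and 757 CPM alone and 202, 194 and 193 CPM with ILC2s (-1.89 ± 0.057). Pim1 fell from 1790.3 ± 98.9 to 622 ± 62.7 CPM (-1.52 ± 0.072), and Pim3 by 0.87 on the log2 scale. Osm, which encodes oncostatin M, stood at 148, 130.2 and 129 CPM alone and 36.7, 31.6 and 31.9 CPM with ILC2s (-2.02 ± 0.081). The cell cycle inhibitor Cdkn1a (-2.13 ± 0.067) and the cyclin gene Ccnd2 (-2.07 ± 0.12) fell as well. Bcl6, a repressor whose sites overlap those of STAT5, was the member that rose, from 4.66 ± 0.521 to 8.82 ± 0.756 CPM (0.92 ± 0.15, edgeR adjusted p = 4.7e-04).

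The receptor genes for IL-5, IL-3 and GM-CSF were not called lower. Il2ra, an IL-2 receptor chain listed among the targets, was called lower at low counts (72 alone and 32 with ILC2s, -1.33, edgeR adjusted p = 0.046). That call held in 7 of 14 alternatives. The IL-9 receptor gene Il9r missed the threshold (-0.76, edgeR adjusted p = 0.054). Csf2rb, the shared beta chain, stood at 3291 ± 219 CPM alone and 3468 ± 70.2 CPM with ILC2s (0.08 ± 0.054, edgeR adjusted p = 0.36), and its near-identical copy Csf2rb2 gave -0.04, so the split of reads between the copies is uncertain. Il5ra rose, from 125, 125 and 115 CPM alone to 196, 199.6 and 188 CPM with ILC2s (0.68 ± 0.059, edgeR adjusted p = 1.4e-06). Csf2ra, the GM-CSF receptor alpha chain, rose by 0.21 ± 0.062, and Il3ra did not pass the test (-0.24 ± 0.092). Over all 27 tested cytokine receptors, 6 rose and 5 fell with a median of 0.01. Those that fell were Lifr (-1.25), Il4ra (-1.18), Il10ra (-1.06), Il13ra1 (-0.96) and Tgfbr2 (-0.22). Leaving out replicate 1 of either group left 3 receptors higher, and the calls of Csf2ra and Tgfbr2 were lost in some alternatives (adjusted p up to 0.10 and 0.080). Tgfbr1, a TGF-beta receptor, rose from 58.3 ± 5.50 to 109.9 ± 7.11 CPM (0.91 ± 0.078). Of 13 genes of the gp130 and STAT3 response, 7 fell and 0 rose, and Stat3 itself gave -0.02.

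Every anti-death gene of the BCL2 family that passed the test fell. Of 24 tested members of the survival and death list, 8 fell and 4 rose, with a median of 0.01. The anti-death gene Bcl2 fell from 46.3 ± 4.14 to 17.1 ± 0.261 CPM (-1.44 ± 0.086), and Bcl2l1, which encodes BCL-XL, from 219 ± 7.04 to 104 ± 5.12 CPM (-1.07 ± 0.060). The 3 Bcl2a1 genes fell by 0.77 to 1.08 on the log2 scale, although their sequences are near-identical and the split between them is uncertain. Mcl1, also anti-death, fell little, from 1537 ± 29.1 to 1306 ± 34.5 CPM (-0.24 ± 0.049). The death activators of the family were split, with Bcl2l11 (0.39) and Bbc3 (0.57) higher and Pmaip1 (-0.56) and Bid (-0.18) lower. The call of Bid held in only 7 of 15 alternatives (adjusted p up to 0.17). Birc3, an inhibitor of apoptosis outside the family, rose (0.62). Bax, Bak1 and Fas did not pass the test.

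Type 2 cytokine genes fell in the eosinophils by different amounts. Il13 stood at 122, 116 and 131 CPM alone and 25.6, 17.9 and 22.8 CPM with ILC2s (-2.48 ± 0.11, edgeR adjusted p = 1.2e-09). Il5 stood at 1034, 1008 and 1066 CPM alone and 744, 732 and 813 CPM with ILC2s (-0.44 ± 0.056, edgeR adjusted p = 5.1e-05). Il4 stood at 87.8, 70.6 and 84.5 CPM alone and 64.5, 54.5 and 64.0 CPM with ILC2s (-0.41 ± 0.090, edgeR adjusted p = 0.0045). The groups of each gene did not overlap. Basophils also make Il4 and Il13, and basophil markers fell beside them: Hdc from 34.3 ± 3.99 to 14 ± 1.74 CPM, Cd200r3 from 34.4 ± 4.36 to 10.8 ± 1.42 CPM and Fcer1a from 3.80 ± 0.425 to 1.64 ± 0.178 CPM, whereas Ms4a2 (2.88 ± 0.549 and 3.41 ± 0.424 CPM) and Cpa3 did not pass the test. The part of such cells in the cytokine values was not tested.

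Over the whole cytokine list, 6 of 13 tested members fell and 3 rose. Lif, a relative of Osm, was low and fell from 2.78 ± 0.732 to 0.260 ± 0.0689 CPM (-3.39 ± 0.39), and Tnf fell from 62.5 ± 5.58 to 40.3 ± 2.61 CPM (-0.63 ± 0.081). Csf1, the macrophage growth factor, rose from 172 ± 12.0 to 277 ± 8.63 CPM (0.69 ± 0.062), and Il16 from 82.5 ± 6.82 to 124 ± 5.95 CPM (0.58 ± 0.071). Il1b and Il6 did not pass the test, and Csf2, which encodes GM-CSF, had 21 counts in each group and was below the filter. Mif, a secreted inhibitor of macrophage migration with many processed copies in the genome, was among the largest falls, from 294 ± 22.7 to 33.1 ± 2.42 CPM (-3.15 ± 0.079).

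Response genes of the cytokines IL-4 and IL-13 fell more often than they rose (8 against 3 of 17 tested, median -0.87). Il4ra, the receptor subunit shared by both cytokines and a target of their signal, stood at 245, 265 and 252 CPM alone and 111, 112 and 114 CPM with ILC2s (-1.18 ± 0.056, edgeR adjusted p = 4.0e-09). Tgm2, a transglutaminase, fell from 74.6 ± 8.68 to 35.5 ± 2.00 CPM (-1.07 ± 0.087). Alox15, the lipoxygenase of alternatively activated cells, rose from 3955 ± 223 to 5932 ± 93.8 CPM (0.58 ± 0.050, edgeR adjusted p = 1.3e-06). Retnla missed the threshold (edgeR adjusted p = 0.11). The chemokine genes Ccl22 and Ccl17 fell, from 88.2, 36.6 and 45.8 CPM to 9.01, 11.2 and 10.6 CPM for Ccl22 (-2.46 ± 0.26) and from 32.9, 11.8 and 14.6 CPM to 3.68, 3.62 and 3.59 CPM for Ccl17 (-2.44 ± 0.32). Both were highest in replicate 1 of eosinophils alone, the library that was also highest for the lectin gene Mgl2 (11.3, 5.23 and 6.38 CPM alone against 0.725, 1.55 and 1.05 CPM) and for Lpl (27.5, 11.2 and 15.4 CPM alone against 9.37, 8.55 and 10.7 CPM). These are genes that dendritic cells and macrophages also carry, and the part of such cells was not tested. Leaving out replicate 1 of either group left 5 of the 17 response genes lower, and Lpl was not called without them (adjusted p up to 0.078). Among 11 tested chemokines, 5 fell and 1 rose. Ccl6, the most abundant, fell from 11169.5 ± 959.5 to 8352 ± 400.0 CPM (-0.42 ± 0.060), and Ccl5 rose from 12.8 ± 1.65 to 28.0 ± 2.02 CPM (1.13 ± 0.11).

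Receptors of the IL-1 family fell in part. Of 13 tested members, 6 fell and 3 rose, with a median of -0.09. Il1r2, the decoy receptor that captures IL-1, stood at 86.4, 74.7 and 71.6 CPM alone and 8.44, 8.74 and 9.61 CPM with ILC2s (-3.12 ± 0.096, edgeR adjusted p = 5.2e-11). Il1rn, the secreted IL-1 receptor antagonist, went the other way, from 731, 713 and 767 CPM alone to 1301, 1364 and 1572 CPM with ILC2s (0.94 ± 0.069). Il1rl1, the IL-33 receptor through which these cells had been activated, fell from 836 ± 25.4 to 535 ± 11.9 CPM (-0.64 ± 0.052, edgeR adjusted p = 6.6e-07), and its partner chain Il1rap did not pass the test (-0.09 ± 0.12). Il18rap, a chain of the IL-18 receptor, fell from 134 ± 17.3 to 35.1 ± 3.79 CPM (-1.93 ± 0.10), and the adaptor gene Myd88 from 135 ± 2.81 to 100.1 ± 0.822 CPM.

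NF-kB regulators and targets, which the IL-33 receptor also drives, were mixed, with 9 of 21 tested members higher and 5 lower. Birc3 rose from 276 ± 4.89 to 426 ± 6.92 CPM (0.62 ± 0.051), and Tnfaip2 from 30.5 ± 1.27 to 59.8 ± 0.920 CPM (0.97 ± 0.068). Ier3, an early stress gene, fell from 45.4 ± 6.16 to 9.06 ± 0.241 CPM (-2.32 ± 0.11). The inhibitor genes Nfkbia and Tnfaip3 did not pass the test. Immediate early genes, which growth factor signals switch on within minutes, fell more uniformly: 13 of 18 fell and 2 rose, with a median of -0.70. Fos fell from 7.47 ± 0.685 to 1.33 ± 0.273 CPM (-2.48 ± 0.21), Klf2 from 602 ± 50.5 to 255 ± 25.2 CPM (-1.24 ± 0.079), Dusp1 by 0.80 and Zfp36 by 0.79 on the log2 scale. Egr2 rose, from 13.2 ± 2.79 to 23.2 ± 1.68 CPM (0.82 ± 0.13). Interferon response genes showed no common direction (5 higher and 3 lower of 19, median -0.04).

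**Figure D4:**
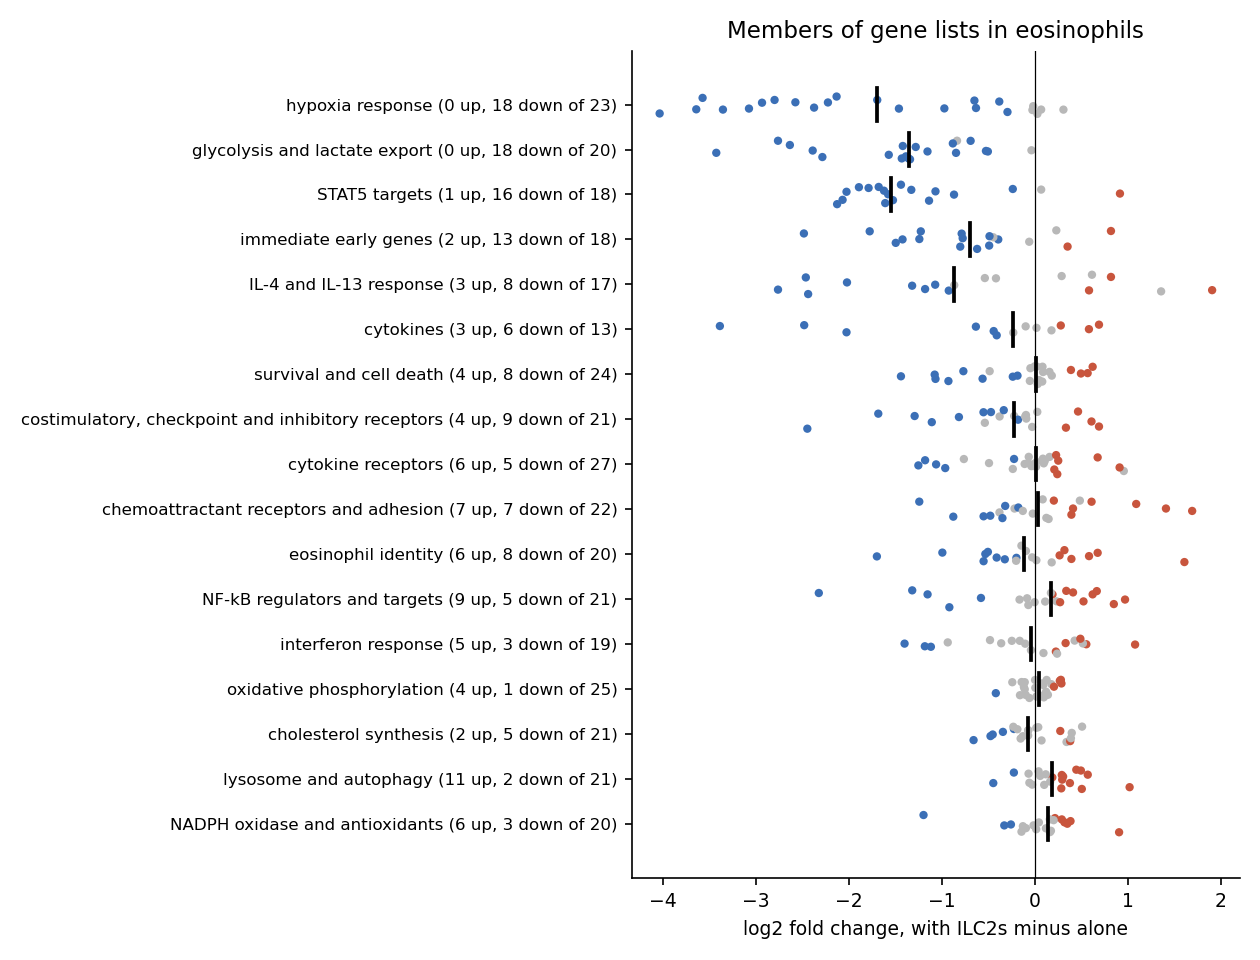
Log2 fold change (with ILC2s minus alone) of each tested member of 17 gene lists in eosinophils, red where higher, blue where lower and grey where the test was not passed, with the list median as a black bar. Hypoxia, glycolysis and STAT5 target genes lie almost wholly below 0 with medians of -1.69, -1.35 and -1.55, whereas oxidative phosphorylation lies around 0 (0.04).

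Surface molecules through which eosinophils meet other cells split. Cd274, which encodes the checkpoint ligand PD-L1, stood at 86.2, 94.7 and 86.1 CPM alone and 37.1, 37.0 and 35.0 CPM with ILC2s (-1.29 ± 0.068, edgeR adjusted p = 1.1e-08). Over the list of costimulatory, checkpoint and inhibitory receptors, 9 of 21 tested members fell and 4 rose. The costimulatory genes Tnfsf9 (4.98 ± 0.125 to 0.907 ± 0.117 CPM) and Cd86 (12.1 ± 1.65 to 6.89 ± 1.35 CPM) fell, and Cd47, the signal that restrains phagocytes, fell from 1095 ± 14.8 to 790.3 ± 17.1 CPM. The inhibitory lectin gene Siglece rose from 134 ± 10.0 to 217 ± 11.5 CPM (0.69 ± 0.067). Plaur, the urokinase receptor, fell from 442 ± 17 to 219.8 ± 10.1 CPM (-1.01 ± 0.058).

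Trafficking receptors and integrins also split, with 7 of 22 higher and 7 lower. Cxcr4, which retains granulocytes in bone marrow, stood at 165, 171 and 157 CPM alone and 488, 505 and 601 CPM with ILC2s (1.69 ± 0.077, edgeR adjusted p = 2.6e-09). Itgax, which encodes CD11c, stood at 283, 275 and 276 CPM alone and 667, 758 and 795 CPM with ILC2s (1.41 ± 0.066). Itgal, the alpha chain of LFA-1, rose from 212 ± 6.53 to 452 ± 24.7 CPM (1.09 ± 0.059). Against these, the chemokine receptor Cxcr2 fell from 184 ± 6.07 to 100.4 ± 5.85 CPM (-0.88 ± 0.062), and Itgam, which encodes CD11b, from 1697 ± 67.8 to 1159 ± 26.6 CPM (-0.55 ± 0.051). The eotaxin receptor Ccr3 rose by 0.40 ± 0.048.

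Eosinophil identity genes moved in both directions. Of 20 tested, 6 rose and 8 fell, with a median of -0.12 that stands between members going opposite ways. Siglecf gave -0.03 ± 0.047 (edgeR adjusted p = 0.73). Xbp1, a factor that eosinophils need to mature and that also drives secretion, fell most, from 794 ± 18.4 to 245 ± 6.78 CPM (-1.70 ± 0.053, edgeR adjusted p = 5.5e-11). The lineage factors Gata2 (-0.99 ± 0.067) and Gata1 (-0.50 ± 0.064) fell, and Cebpe (0.27 ± 0.086) and Cebpa (1.61 ± 0.23, at 6.27 ± 0.986 CPM with ILC2s) rose, Cebpe losing its call without single libraries (adjusted p up to 0.14). Of the granule genes, Prg2 (359, 304 and 369.6 CPM alone against 323, 316 and 337 CPM) and Epx (10.2 ± 0.0664 against 12.8 ± 1.19 CPM, edgeR adjusted p = 0.05) did not pass the test. Among the granule ribonucleases Ear6 fell by 1.25 on the log2 scale and Ear1 (1.48 ± 0.090) and Ear2 (1.19 ± 0.095) rose, but these near-identical copies may share reads.

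Cd34, Gm8113, Retnlg and Lyz2 had the largest rises among genes named by size that ILC2s do not carry at a higher level. Cd34 (chr1:194938819-194961279, mm10, plus strand), a sialomucin known from blood progenitors and also carried by mouse eosinophils, stood at 6.17, 3.95 and 5.23 CPM alone and 39.5, 43.6 and 60.2 CPM with ILC2s (3.23 ± 0.18, edgeR adjusted p = 1.6e-08). In ILC2s it stood at 0.0567 CPM alone and 4.49 CPM with eosinophils. The other progenitor markers did not follow Cd34: of 9 tested, Cd34 and Myb (0.98) rose, and Kit (11.8 ± 1.36 to 2.64 ± 0.784 CPM), Meis1 (37.6 ± 1.96 to 10.7 ± 0.721 CPM), Ly6a (-1.74) and Gata2 fell. Retnlg (chr16:48872621-48874496, mm10, plus strand), a secreted resistin-like protein of granulocytes, stood at 101, 83.1 and 109.8 CPM alone and 649, 581 and 663 CPM with ILC2s (2.69 ± 0.093, edgeR adjusted p = 1.6e-10). It is known foremost from neutrophils, and of 12 tested neutrophil markers 3 rose (Retnlg, Mmp8 and Mmp9) and 4 fell (S100a8, S100a9, Cxcr2 and Padi4). S100a8 fell from 3.86 ± 1.08 to 1.11 ± 0.254 CPM and S100a9 from 5.20 ± 1.81 to 2.01 ± 0.340 CPM, and Mmp8 rose by 2.16. The part of neutrophils in these values was not tested. The call of Mmp9 was lost without single libraries (adjusted p up to 0.14).

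Lyz2, lysozyme of phagocytes, stood at 9.66, 8.32 and 13.3 CPM alone and 62.5, 60.9 and 69.5 CPM with ILC2s (2.62 ± 0.13, edgeR adjusted p = 5.6e-09). Its close copy Lyz1 had 0 counts alone and 3 with ILC2s. Of the matrix metalloproteinase genes, Mmp12, the macrophage elastase, rose from 4.86 ± 2.90 to 16.8 ± 1.84 CPM (1.8 ± 0.27) and Mmp27 from 6.58 ± 0.780 to 22.4 ± 1.99 CPM (1.77 ± 0.12), while the far more abundant Mmp25 stood at 1832 ± 173 CPM alone and 1971 ± 118 CPM with ILC2s and was not called (edgeR adjusted p = 0.30). Cd101, an inhibitory surface protein, rose from 90.6 ± 6.35 to 271 ± 32.8 CPM (1.58 ± 0.086), Slc40a1, the iron exporter ferroportin, from 24.7 ± 1.86 to 71.8 ± 5.35 CPM (1.54 ± 0.082) and Dhrs3, a retinal reductase, from 17 ± 2.01 to 64.0 ± 11.9 CPM (1.91 ± 0.13). Other large rises were those of Gm8113 (3.06), Pbld2 (2.25) and Zfyve28 (2.10), the last overlapping Gm15513 and Gm42848. The genes named for large rises in this paragraph have groups that do not overlap because the rule that named them required it. Among genes that ILC2s carry at a higher level, the leading rises were Sntb1 (1.8 ± 0.576 to 17.6 ± 3.21 CPM), Atp10a (2.75), Spata13 (26.8 ± 1.65 to 112 ± 12.2 CPM) and the protease gene Lgmn (5.50 ± 1.55 to 20.8 ± 2.67 CPM).

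Degradative and oxidant genes rose more often than they fell. Of 21 lysosome and autophagy genes, 11 rose and 2 fell (median 0.19), against 11.4% of all genes higher. The calls of Lamp1, Atg5 and Tfe3 as higher were lost without replicate 1 of either group (adjusted p up to 0.14, 0.096 and 0.061 over all alternatives). The lysosomal protease gene Ctsd rose from 817 ± 68.3 to 1062 ± 71.6 CPM (0.38 ± 0.069), the hexosaminidase gene Hexa from 158 ± 12.1 to 235 ± 16.7 CPM (0.57 ± 0.071), Ctsa by 0.51 ± 0.059 and the autophagy kinase gene Ulk1 by 0.50 ± 0.061, while Atg7 fell by 0.45 on the log2 scale. Among 20 NADPH oxidase and antioxidant genes, 6 rose and 3 fell, against 11.4% of all genes higher and 13.5% lower. The calls of Txn1 (higher) and Sod1 (lower) were lost without single libraries (adjusted p up to 0.082 and 0.14). Cybb, the catalytic subunit of the phagocyte oxidase, stood at 779, 824 and 787 CPM alone and 1437, 1535 and 1516 CPM with ILC2s (0.91 ± 0.052, edgeR adjusted p = 2.2e-08), and the heme-degrading enzyme gene Hmox1 fell from 27.4 ± 2.41 to 12.0 ± 0.433 CPM (-1.20 ± 0.098).

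Lipid genes held the largest fall among abundant transcripts. Lipg, endothelial lipase, which cleaves phospholipids of lipoproteins, stood at 413, 417 and 401 CPM alone and 26.2, 22.7 and 23.2 CPM with ILC2s (-4.10 ± 0.070, edgeR adjusted p = 2.9e-13). ILC2s held it at 0.188 CPM alone and 0.0939 CPM with eosinophils. Of 26 tested genes of lipid uptake, lipolysis, efflux and storage, 8 rose and 7 fell, with a median of -0.03. Without replicate 3 of eosinophils with ILC2s 4 rose, and without replicate 1 of that group 5 rose. Lipa, the lysosomal acid lipase, rose from 46.2 ± 2.81 to 83.0 ± 4.61 CPM (0.84 ± 0.071), Soat1, which esterifies cholesterol, by 0.79 and the scavenger receptor gene Olr1 from 107 ± 7.96 to 161 ± 13.5 CPM (0.59 ± 0.075). Hilpda, a lipid droplet protein induced by HIF, fell from 12.9 ± 1.75 to 4.00 ± 0.639 CPM (-1.69 ± 0.16). Cholesterol synthesis changed little (2 higher and 5 lower of 21, median -0.07), with Insig1 at -0.66. In eicosanoid synthesis, 4 of 16 rose and 3 fell. Lta4h, which makes leukotriene B4, rose from 354 ± 11.2 to 497 ± 12.2 CPM (0.49 ± 0.053), Ptgs1 fell from 513 ± 18.9 to 320.4 ± 5.64 CPM (-0.68 ± 0.053), and Alox5 did not pass the test (0.07 ± 0.051).

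Other lists were small or mixed. Matrix, repair and growth factor genes fell in 8 of 16 cases (5 without replicate 1 of eosinophils with ILC2s) and rose in 3, with the epidermal growth factor ligand Hbegf falling from 41.7 ± 1.21 to 9.00 ± 1.44 CPM (-2.21 ± 0.11). Among amino acid shortage and ER stress genes, 7 of 22 fell and 1 rose, the latter being Slc3a2, the heavy chain of amino acid transporters (0.88 ± 0.074). Slc7a5, one of its light chains, fell from 8.14 ± 0.293 to 3.02 ± 0.882 CPM, whereas Slc7a8, a far more abundant amino acid transporter gene outside the list, rose to 798 CPM with ILC2s. Ribosome biogenesis genes rose in 7 of 20 cases and fell in 2, by at most 0.58 on the log2 scale (Heatr1). Of 21 cell cycle genes 2 rose and 2 fell, and Mki67 did not pass the test. In MHC class II presentation, H2-Ab1 fell from 38.2 ± 5.92 to 18.3 ± 1.56 CPM (-1.06 ± 0.11) while Ctss and H2-Oa rose. FOXO and glucocorticoid response genes gave 4 higher and 7 lower of 18.

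In the ILC2s of the same cocultures, the hypoxia and glycolysis genes moved the opposite way. All 12 libraries were fitted together, and each response was taken as coculture minus alone in its own cell type. The 2 comparisons share no library, but both kinds of cell came from the same cultures. All 20 glycolysis genes had a change below 0 in eosinophils and passed the test as higher in ILC2s. For 17 of 23 hypoxia genes and 12 of 18 STAT5 targets, the eosinophil change was below 0 and the ILC2 change was called above 0. Over all 15745 genes in that fit, 2502 (15.9%) had this pattern. The lists were chosen with earlier results known, and most of their members fell in eosinophils. A closer base is therefore the 7314 genes below 0 in eosinophils, of which those 2502 were called higher in ILC2s. Of the list members below 0 in eosinophils, 17 of 18 hypoxia genes and 12 of 16 STAT5 targets were called higher in ILC2s. Pdk1, Mcl1 and Bcl2 were among the exceptions, called lower in ILC2s as well (-0.23, -0.19 and -0.48). The difference between the responses was tested for 12 genes, in a fit where 51.5% of 15745 genes differed. Egln3 fell by 3.54 in eosinophils and rose by 2.93 in ILC2s on the log2 scale, a difference of -6.48 ± 0.077 (edgeR adjusted p = 1.8e-25). Vegfa gave -4.00 and 3.46 (difference -7.47 ± 0.14), Socs3 -1.58 and 5.34 (difference -6.92 ± 0.12) and Cish -1.55 and 1.45 (difference -3.0 ± 0.073). Il13 fell by 2.45 in eosinophils and rose by 4.98 in ILC2s (difference -7.43 ± 0.12). Cd274 fell in both, by 1.26 and 0.86 (difference -0.40 ± 0.089, edgeR adjusted p = 5.5e-04), and Cd34 rose in both, by 3.25 and 6.39 (difference -3.13 ± 0.76). For Il4 the difference missed the threshold (-0.32 ± 0.16, edgeR adjusted p = 0.094).

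**Figure D5:**
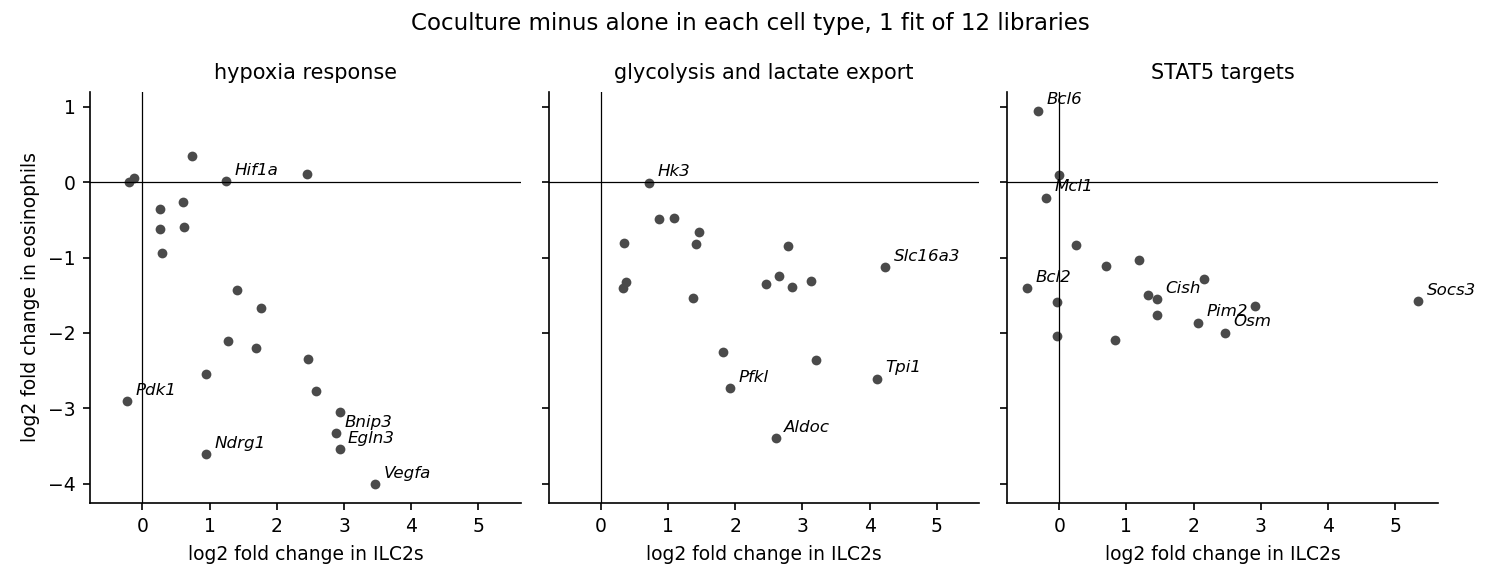
Log2 fold change of coculture minus alone in eosinophils (vertical) against that in ILC2s (horizontal) for tested members of the hypoxia (23), glycolysis (20) and STAT5 target (18) lists, from 1 fit of 12 libraries. Most points lie at the lower right, below 0 in eosinophils and above 0 in ILC2s, with Vegfa at -4.00 and 3.46 and Egln3 at -3.54 and 2.93.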

How the data were processed

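The authors deposited raw read counts per gene for 12 libraries (4 groups of 3, C57BL/6 mice). Per the submitters' processing notes the tools were bcl2fastq 2.17, Trimmomatic 0.36, STAR 2.5.2b and featureCounts of Subread 1.5.2, with mm10. The libraries were made with NEBNext Ultra II, per the labels' protocols. No source used here gives the annotation release, the strand setting or the handling of reads with several matches. Of 49315 identifiers, 49056 took a symbol from GENCODE M21. 73 symbols stood on more than 1 identifier.

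The 6 eosinophil libraries were fitted with edgeR 4.0.16 in R 4.3.3 (filterByExpr, TMM, quasi-likelihood F test, two-sided), with Benjamini-Hochberg adjustment over 13109 genes and a threshold of 0.05. The SE is the log2 fold change divided by the square root of F. The same test on all 12 libraries gave the difference from the ILC2 response. Alternatives used DESeq2 1.42.0, limma 3.58.1, other scalings and filters, and left out each library. Exact permutation tests used scipy 1.17.1. On simulated counts with 200 changed genes, 73.1%, 83.6% and 98.5% of genes changed by 1.5-, 2- and 4-fold were recovered for the eosinophil comparison (13109 genes), and 5.03% of the calls were false. The changed genes were drawn from those above a minimum count, in random directions. The rates therefore need not hold for scarce genes, or where many more genes change and the falls are larger, as here.

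Members and gene lists were chosen with earlier results of these data known, so lists carry counts and medians but no test. Genes were named as the 12 largest rises and falls of at least 8 CPM with groups that do not overlap, the 4 largest rises among genes higher in ILC2s, the 4 members with the lowest p in each list, and 17 further genes of interest. Other list members are given for their role. Replicate numbers were not used to pair libraries, since the labels give them no shared source. Deviations of same-numbered libraries correlated at 0.0237, 0.184 and 0.0433, and those of differently numbered libraries at -0.164 to 0.115. Whether the numbers pair libraries is thus not settled. Promoters come from a RefSeq GRCm38.p6 table.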

Additional observations from a re-analysis of the deposited data

Results flagged for a closer look

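For 11 of 12 genes compared between the cell types, the response to coculture differed between eosinophils and ILC2s by a test of the difference itself (edgeR on 12 libraries). The same test called 51.5% of the 15745 genes in that fit, and the 12 were picked genes and not a random draw. The differences below are the eosinophil log2 fold change minus that of ILC2s. Vegfa (-7.47), Il13 (-7.43), Socs3 (-6.92), Egln3 (-6.48) and Cish (-3.0) fell in eosinophils and rose in ILC2s. Il5 fell by 0.41 on the log2 scale in eosinophils and rose by 2.73 in ILC2s (difference -3.14 ± 0.077). Lipg gave -3.26 ± 0.83 (edgeR adjusted p = 0.0019) and Retnlg 3.18 ± 0.87 (edgeR adjusted p = 0.0035), but both were near 0 in ILC2s, at 0.188 and 0.0939 CPM for Lipg and 0.185 and 0.112 CPM for Retnlg. Cd34 rose in both and gave -3.13. The fold in ILC2s starts from 0.0567 CPM, and cocultured ILC2s held 4.49 CPM against 47.8 CPM in cocultured eosinophils. Csf2 gave -1.98 ± 0.69, with 21 counts in each eosinophil group. Cd274 fell in both and gave -0.40.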

How the results depend on the processing

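No called gene that the text names reversed its direction in any alternative, and 137 of 142 called genes named by rule passed the threshold in all of them (not Cdc20, Lss, Mcm7, Ndufb5 and Sdhb). With all 12 libraries in the fit, 2276 genes were higher, and 10 NADPH oxidase and antioxidant genes. Without genes that stand higher in ILC2s, 658 were higher and 774 lower. Leaving out each library gave 948 (without replicate 3 of eosinophils with ILC2s) to 1604 genes higher, 4 to 7 activation surface genes lower (4 without replicate 1 of either group), 5 to 9 IL-4 and IL-13 response genes lower, 3 to 6 cytokine receptors higher, 4 to 10 lipid genes higher and 5 to 8 matrix and repair genes lower.

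Some list medians changed sign, and the cause was not tested where none is given. Under a CPM filter, which tests fewer genes, activation surface gave 0.17. Erythroid and platelet markers went from 1.27 over Ppbp and Itga2b to -0.0854, since that filter leaves only Itga2b. Lipid genes gave 0.026 by library totals. Leaving out each library gave -0.032 to 0.074 for cytokine receptors (lowest without replicate 1 with ILC2s), -0.0445 to 0.086 for lipid genes (0.086 without replicate 1 alone, 0.049 without replicate 1 with ILC2s) and -0.023 to 0.014 for survival and cell death (lowest without replicate 2 alone). MHC class II gave -0.32 to 0.21 (highest without replicate 1 alone).

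With the replicate number as a block, 2029 genes were higher and 2139 lower, although the numbers share no known source. The highest correlation of all pairs was between the libraries numbered 2 (0.184), whereas replicate 3 alone correlated best with replicate 1 with ILC2s (0.115). In that replicate block the difference for Il4 was -0.32 (edgeR adjusted p = 0.0235). For Csf2 DESeq2 gave -1.92 (adjusted p = 0.105), and for Cd274 library totals gave -0.21 (edgeR adjusted p = 0.0559). At this depth, 3 counts equal 0.144 to 0.169 CPM, which limits genes such as Csf2 and Epas1.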

Other observations

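The choice of genes in these paragraphs was made after seeing their values, which are descriptions. Glycogen enzymes moved unequally. Gys1, muscle-type glycogen synthase, stood at 127, 129 and 127 CPM in eosinophils alone and 24.1, 24.6 and 25.2 CPM with ILC2s (-2.37 ± 0.063). The phosphoglucomutase gene Pgm1 fell from 127 ± 0.993 to 25.6 ± 2.18 CPM, and the branching enzyme gene Gbe1 from 48.1 ± 5.87 to 21 ± 1.19 CPM. The phosphorylase gene Pygl, which releases glucose from glycogen, was far more abundant and did not pass the test (2193 ± 45.9 and 2091 ± 54.7 CPM), nor did Ugp2 and Pgm2. Gys1 overlaps Ruvbl2 on the other strand.

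Several genes of low abundance that are known to respond to hypoxia went to almost 0. Mgarp, a mitochondrial protein, had 655 counts alone and 0 with ILC2s, at least 233-fold lower when the cocultured group is set at 3 counts in all. Ak4, an adenylate kinase, stood at 15.4, 15.5 and 12.3 CPM alone and 0.259, 0.0940 and 0.239 CPM with ILC2s. Pgf, placental growth factor and a relative of Vegfa, fell from 7.15 ± 0.546 to 0.412 ± 0.244 CPM. Each was lower in all 3 cocultured libraries than in any library alone.

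Other large changes had no list. Cyp11a1, the enzyme that begins steroid synthesis from cholesterol, stood at 309.6, 291 and 299 CPM alone and 61.5, 57.3 and 59.1 CPM with ILC2s (-2.34 ± 0.060). Kcnk5, a potassium channel, fell from 83.5 ± 1.26 to 10.3 ± 1.17 CPM. Among rises, Slc7a8, an amino acid transporter, went from 309 ± 16.8 to 798 ± 62.0 CPM and Acp5, tartrate-resistant acid phosphatase, from 64.4 ± 6.26 to 168 ± 23.2 CPM. Itgb5, an integrin chain, rose from 1.10 ± 0.388 to 12.4 ± 3.09 CPM. Dio2, which activates thyroid hormone, had 12 counts alone and stood at 4.19, 5.40 and 6.65 CPM with ILC2s.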
